A study of Arabidopsis thaliana with 76 samples.

Results

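Serine/arginine-rich (SR) proteins are RNA-binding proteins that join an RNA recognition motif to a stretch of alternating serines and arginines. They bind exons of pre-mRNA and recruit the spliceosome, the machine that removes introns, to nearby splice sites. In plants several SR genes are known to respond to light, heat, and sugar supply, and many of their own transcripts are alternatively spliced. The values below describe 9 SR genes of *Arabidopsis thaliana*, chosen by name from the 33557 genes in the deposited files. They were *SR30* (AT1G09140) and *SR34* (AT1G02840) of the SR subfamily, which is related to human SRSF1. *RS31* (AT3G61860), *RS40* (AT4G25500), and *RS41* (AT5G52040) belong to the RS subfamily, found only in plants. *SCL30* (AT3G55460), *SCL30A* (AT3G13570), and *SCL33* (AT1G55310) belong to the SC35-like (SCL) subfamily. *SR45A* (AT1G07350) is an SR-like gene related to the splicing regulator transformer-2 of animals. All 9 passed the filter on low counts in each fit, and 84 to 7875 reads were counted on each of them in each library. The values are per gene, so transcripts of 1 gene that are spliced differently were not separated.

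The study asked how the time of day, growth temperature, and signals from the chloroplast set the expression of heat-associated genes in seedlings. All seedlings were of the Col0 ecotype, grown in short days of 8 h light and 16 h dark at 170 µmol light, and each RNA sample came from a pool of 25 seedlings. WT was sampled 8 times a day, first at ZT−4 (ZT counts hours from lights on, so this is in the dark) and last at ZT16, with 2 libraries per time point at 17°C and 1 library per time point at 22°C and 27°C. The *ss4-1* mutant (*ss4*), which lacks a starch synthase involved in starting starch granules, was sampled at the same 8 time points at 17°C with 2 libraries each. The mutants *pgm* (phosphoglucomutase of the plastid, needed to make starch), *ss3/ss4* (*ss3/4*, which lacks the starch synthase SS3 as well), and *ss3/ss4/pgm* (*ss3/4/pgm*) were sampled at 17°C at ZT0 and ZT2, with 2 libraries each. In a separate experiment, WT seedlings in liquid media at 22°C or 27°C were sampled at ZT1, 2 libraries per group. They were untreated, or had been given at ZT−1 an ethanol mock, 30 µM DCMU, or 50 µM DBMIB. DCMU stops photosynthetic electron flow before the plastoquinone pool, and DBMIB stops it after the pool. In all, 76 libraries were analyzed, of which 60 have counts of 3204754 to 19679912 reads and 16 (WT at 22°C and 27°C) were read as TPM only. No source says whether the 2 libraries of a group came from separate plantings, so p-values measure the spread between these libraries.

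The labels of the mutants were checked on their transcripts. *PGM* had 94.9 and 95.4 CPM in WT at ZT0 and 9.59 to 13.1 in the 4 libraries of *pgm* and *ss3/4/pgm*. *SS3* had 107 and 100 CPM in WT at ZT0 and 23.0 to 29.5 in the 4 libraries of *ss3/4* and *ss3/4/pgm*. *SS4* did not separate the genotypes, with 62.4 and 62.2 CPM in WT at ZT0, 58.1 and 56.1 in *ss4*, and 57.3 and 52.8 in *ss3/4*, so its level checks no label. Shoot and root markers (3 genes each, all above 0 in every group) were both present, as for whole seedlings. In whole seedlings, fewer cells of a type and less RNA per cell cannot be told apart.

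The 300 bases before the annotated start of each gene were searched for short elements known from plant promoters. The site II element, spelled TGGGCC on either strand and common before genes that every growing cell uses, lay before 5 of the 9 SR genes and before 14.6% of 27443 protein-coding genes. The heat shock element of 3 alternating units (GAANNTTCNNGAA or TTCNNGAANNTTC) lay before 0 of the 9 and 0.485% of all promoters. With 2 units (GAANNTTC or TTCNNGAA) it lay before *SCL33* and *RS41* and before 19.3% of all promoters. The G-box (CACGTG) lay before 1 of the 9 and before 7.09% of all. The evening element (AAAATATCT, 2.79% of all) and the telo-box (AAACCCTA, 5.21% of all) lay before none of the 9. A match is a spelling, not a bound site. The sequences below are the last 120 bases before the start of 4 genes with a site II element, 5′ to 3′ on the strand of the gene, from the RefSeq assembly TAIR10.1. They are shown for the place of the element before *SR45A* and *SR30*, on which many of the results turn, and 2 members not called in *ss4* at ZT2. No link between the element and a call was tested. Capitals mark the site II element.
SR45A (chr1:2260188-2260307, minus strand): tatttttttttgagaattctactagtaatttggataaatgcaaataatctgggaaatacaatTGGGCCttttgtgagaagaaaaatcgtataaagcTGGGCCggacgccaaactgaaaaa
SR30 (chr1:2945977-2946096, minus strand): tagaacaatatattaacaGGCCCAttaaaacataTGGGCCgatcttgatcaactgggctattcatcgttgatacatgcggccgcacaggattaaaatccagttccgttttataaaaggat
RS40 (chr4:13024378-13024497, plus strand): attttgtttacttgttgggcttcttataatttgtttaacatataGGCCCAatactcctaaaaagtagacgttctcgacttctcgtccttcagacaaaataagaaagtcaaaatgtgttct
SCL30 (chr3:20560682-20560801, plus strand): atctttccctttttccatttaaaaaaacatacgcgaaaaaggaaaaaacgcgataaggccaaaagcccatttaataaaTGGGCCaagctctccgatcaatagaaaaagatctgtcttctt
In *SR45A* the elements ended 53 and 19 bases before the start. In *SR30* the last bases of the elements lay 97 and 81 bases before the start. These distances use the RefSeq starts, at 2260187 for *SR45A* and 2945976 for *SR30*. The deposited bounds place them at 2260101 and 2945961, so which gene has the nearer elements depends on the bounds used. For 22237 of 32810 matched genes, 1 or both bounds differed.

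In WT at 17°C, *SR34* was the most abundant of the 9 transcripts per length. Its TPM, a level per transcript length that sums equally over each library, ran over the 16 libraries of the day from 101 to 145 with a median of 120. This range lay above that of every other member. *SCL30* (median 73.1), *SCL30A* (63.2), *RS41* (60.3), *SR30* (56.8), *RS40* (53.2), *RS31* (43.2), *SR45A* (30.7), and *SCL33* (23.2) followed, and each of these neighbours overlapped with the next in range. *SR45A* varied most within the day, 2.75-fold between its lowest and highest library, followed by *SCL30A* (2.36-fold) and *RS40* (1.99-fold). *SCL30* varied least, 1.31-fold.

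*SR45A* was overexpressed in the first hours of light at 17°C, and no other member had a morning peak of that size. At ZT0 the 2 libraries held 33.8 and 35.1 CPM of *SR45A* (reads scaled to library size with TMM factors), at ZT1 72.3 and 79.3, and at ZT2 79.1 and 83.6. By ZT4 it had fallen to 50.2 and 57.4 CPM, and at ZT12, in the dark, it was at 33.7 and 32.6. Its libraries at ZT1, ZT2, and ZT4 all lay above those at ZT0. The log2 fold change against ZT0 was 1.14 (SE 0.11, adjusted p = 2.82e-08) at ZT1 and 1.22 (SE 0.11, adjusted p = 4.15e-09) at ZT2, by the quasi-likelihood test of edgeR, where adjusted p-values are those of Benjamini and Hochberg across the whole set of genes tested. *HSP70*, a chaperone that marks the heat response, moved with it, with 9.24 and 8.97 CPM at ZT0 and 81.1 and 131 at ZT2. *SR45A* is also the only one of the 9 genes that the study placed in its clusters of heat-associated genes. Those clusters were chosen on these libraries, so its morning rise is not independent of that choice.

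Over the whole day at 17°C, 6 of the 9 members differed among the time points (adjusted p under 0.05, edgeR's quasi-likelihood F-test), where 68.6% of all 20692 genes did. They were *SR45A*, *RS40*, *SCL30A*, *RS31*, *SR34*, and *SR30*, whereas *SCL33*, *SCL30*, and *RS41* did not pass. A share of 6 of 9 is near that of all genes, so the number of members that differed is not particular to them. The times of their highs and lows were not tested. In TPM both replicates peaked together for *SR45A* (ZT2) and *SR34* (ZT−4). They peaked apart for *RS40* and *RS31* (ZT−4 and ZT8), *SCL30A* (ZT2 and ZT4), and *SR30* (ZT−4 and ZT4). *SCL30A* rose in the morning like *SR45A* but stayed high longer. Its libraries held 52.3 and 48.6 CPM at ZT0, against 77.6 and 87.2 at ZT2 and 69.3 and 76.0 at ZT8, with log2 fold changes of 0.69 (SE 0.14, adjusted p = 4.26e-04) and 0.50 (SE 0.14, adjusted p = 0.00565) against ZT0. *RS40* had its low at ZT1 and ZT2, with 49.3 to 50.5 CPM in the 4 libraries, and was highest at ZT8 with 81.0 and 97.3. Against ZT0 (60.5 and 53.3 CPM) its log2 fold change was 0.62 (SE 0.13, adjusted p = 4.04e-04) at ZT8.

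*SR34* moved the other way in the light. At ZT0 its libraries held 142 and 141 CPM, at ZT2 111 and 114, and at ZT8 110 and 105, with log2 fold changes of −0.35 (SE 0.11, adjusted p = 0.0187) and −0.42 (SE 0.11, adjusted p = 0.00325). *RS31* was lower at ZT4 and ZT12, by 0.42 and 0.49 on the log2 scale. *SR30*, a close relative of *SR34*, was called lower at ZT8 only, with 48.7 and 35.7 CPM against 61.5 and 52.9 at ZT0. At single time points against ZT0, members passed 16 tests in all. At ZT1 *SR45A* alone passed, where 15.8% of all genes did. At ZT2, ZT4, ZT8, and ZT12, 3 or 4 members passed, where 31.8%, 35.9%, 43.7%, and 32.7% of all genes did. At ZT16 *RS40* alone passed (22.8% of all genes), and at ZT−4 no member passed by edgeR (4.12%), with *RS40* at an unadjusted p of 0.00716. Of these 16 calls, those for *SR45A* at ZT1, ZT2, and ZT4, for *SCL30A* at ZT2, for *RS40* at ZT8, and for *RS31* at ZT12 remained without either replicate, and without replicate 2 the number fell to 9. *RS40* and *RS41* overlap genes on the opposite strand, and no source used here states if counting was by strand, so their values are uncertain.

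At 22°C and 27°C the morning rise of *SR45A* was steeper than at 17°C, and its highest value was at ZT1, not ZT2. At 17°C its TPM also rose within the first hour, from 26.7 and 27.1 at ZT0 to 54.6 and 56.8 at ZT1. It stood at 60.7 and 62.6 at ZT2. No test compared 17°C with the warmer temperatures. At 22°C its TPM went from 45.8 at ZT0 to 255 at ZT1, and was back at 98.1 at ZT2 and 50.7 at ZT4. At 27°C it went from 96.0 at ZT0 to 329 at ZT1, 174 at ZT2, and 83.7 at ZT4. The log2 change from ZT0 to ZT1, computed on TPM plus 1, was 2.45 at 22°C and 1.77 at 27°C, so the warmer seedlings reached a higher peak from a higher base. At ZT1 *SR45A* was above *SR34* at both temperatures, whereas at ZT0 *SR34* had 203 and 281 TPM. These temperatures have 1 library per point, so none of the differences has a replicate check, and TPM keeps no sequencing depth.

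*SR30* had its highest value of the day at ZT1 at 22°C and 27°C, which was not seen at 17°C. At 22°C its TPM was 101 at ZT0 and 120 an hour later, and at 27°C it was 165 and then 269. At 17°C its CPM at ZT1 (56.7 and 57.0) lay within the values at ZT0. Its 2 libraries at 17°C and ZT0 held 65.5 and 53.3 TPM. The small step at 22°C, with 1 library per point, is thus not shown to exceed the spread between libraries. *SR34* and *RS40* dropped over the same hour. *SR34* went from 203 to 119 TPM at 22°C and from 281 to 134 at 27°C, and *RS40* from 60.2 to 33.3 and from 89.1 to 40.5. At ZT1 *SR45A* and *SR30* were at their highest of the day while *RS40* at 22°C was at its lowest of the day. *SCL30A* rose from 53.6 to 72.2 TPM at 22°C and from 44.6 to 78.6 at 27°C.

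At every time point 3 members were higher in the warmer seedlings. *SR45A*, *SR30*, and *SCL33* exceeded their 22°C TPM at 27°C in 8 of 8 time points. For *SCL33* the values were 50.7 at 22°C and 92.7 at 27°C at ZT0, and 46.1 and 50.9 at ZT12. For *SR30* the log2 ratio of 27°C over 22°C was largest at ZT1 (1.15) and smallest at ZT12 (0.07). The median over genes with at least 5 TPM at a time point (18155) was above 0 at every time point except ZT12. It was 0.16 at ZT8, 0.13 at ZT1, and −0.04 at ZT12. How many of these genes were higher at 27°C at all 8 time points was not counted, so the count of 3 members has no background. *SCL30A* went the other way at 7 time points, with 63.3 TPM at 22°C and 37.9 at 27°C at ZT12. *SR34*, *RS31*, *RS40*, *RS41*, and *SCL30* were higher at 27°C at 2 to 7 of the 8 time points.

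**Figure D1:**
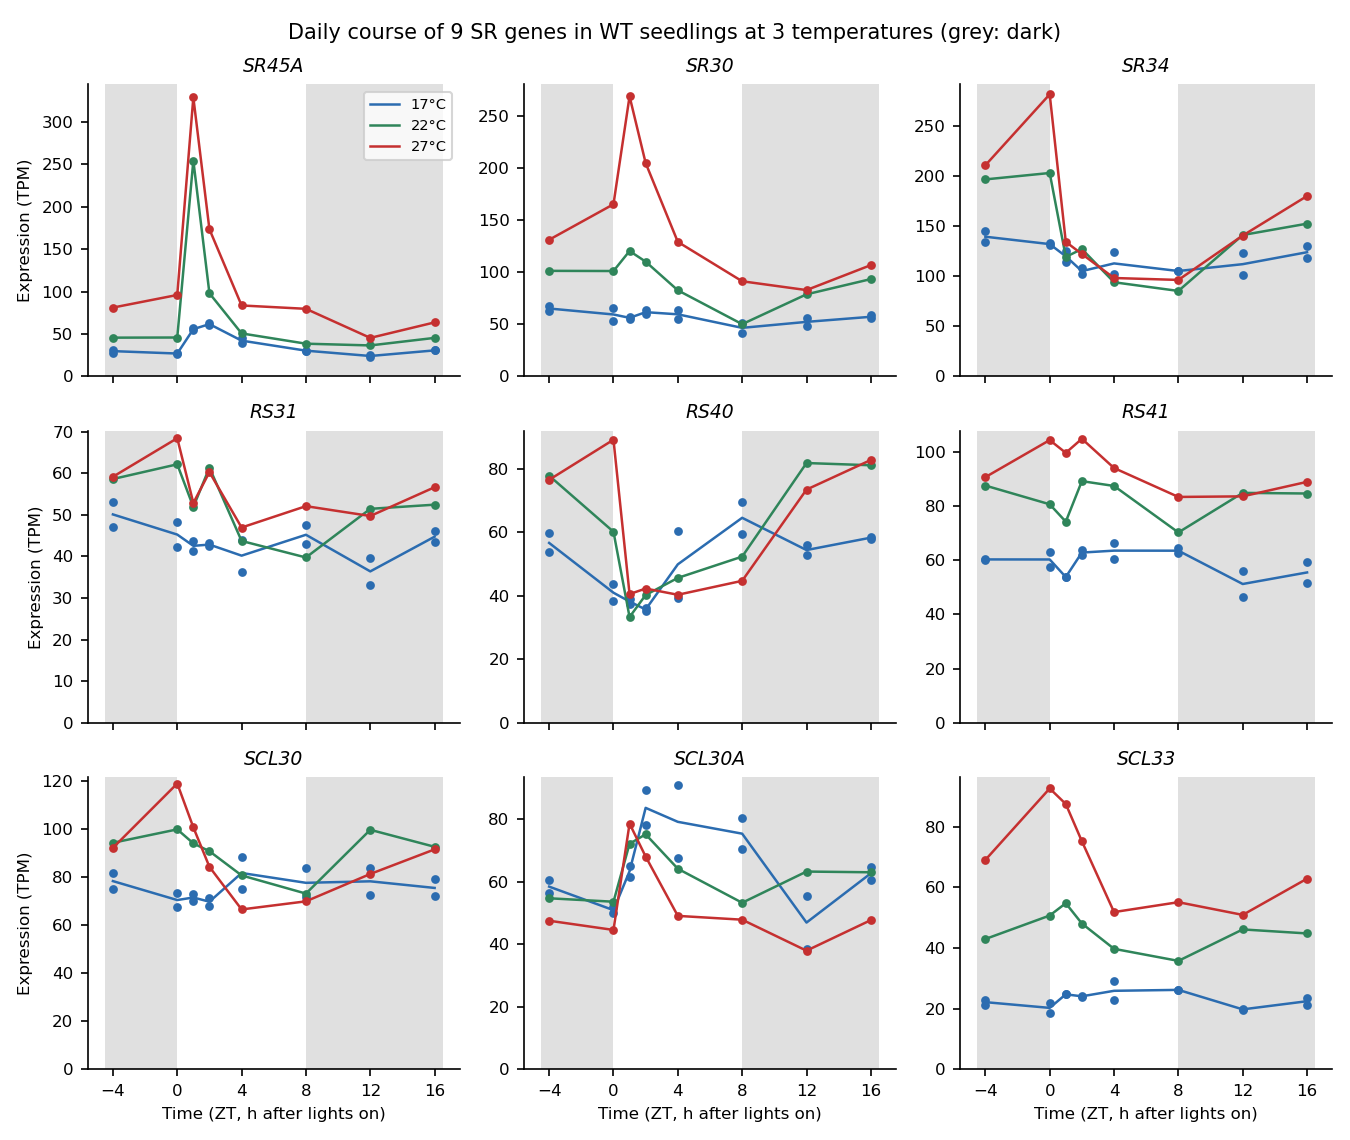
TPM of the 9 SR genes in WT over the day (x axis, hours after lights on) at 17°C (blue, 2 libraries per point, line through their mean), 22°C (green), and 27°C (red, 1 library per point each). *SR45A* peaks at ZT1 at 22°C and 27°C (255 and 329 TPM) and at ZT2 at 17°C, and *SR34* and *RS40* drop between ZT0 and ZT1 at the warmer temperatures. The values at 17°C come from other files than those at 22°C and 27°C.

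The *ss4* mutant was compared with WT at each time point to see whether the loss of a starch synthase changes these genes. *SR45A* and *SR30* were overexpressed in *ss4* at ZT2, about 2-fold, and no member was called at the other 7 time points. *SR45A* had 79.1 and 83.6 CPM in WT at ZT2 and 155 and 160 in *ss4*. *SR30* had 58.4 and 59.7 CPM in WT and 109 and 101 in *ss4*. The genotypes did not overlap for either gene, nor for any other member except *SR34*, so this does not set these genes apart. The number of all genes that did not overlap was not counted. The log2 fold change was 0.98 (SE 0.10, adjusted p = 1.13e-06) for *SR45A* and 0.86 (SE 0.14, adjusted p = 9.48e-04) for *SR30*, with 0.532% of all genes called at ZT2. The study chose its heat-associated clusters on these libraries, so the direction of *SR45A* here is not independent of that choice. *HSP70* had 81.1 and 131 CPM in WT and 650 and 657 in *ss4* at this time point.

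The other 7 members at ZT2 had log2 fold changes between −0.07 and 0.29, of which that of *SCL33* (29.4 and 29.4 CPM in WT, 32.9 and 37.7 in *ss4*) was the largest, with an adjusted p of 0.676. The 95% interval for *SR34*, from −0.12 to 0.32, leaves no room for a change of the size seen in *SR45A*. Of the 11 other SR genes, the 10 genes for SR kinases and nuclear import, the 8 genes for partners at splice sites, and the 4 genes for nonsense-mediated decay, the pathway that removes mis-spliced transcripts, none was called at ZT2. At the 7 other time points the share of all genes called was 0.0483% (ZT−4), 0.0290% (ZT0), 0.0532% (ZT1), 5.42% (ZT4), 0.00967% (ZT8), 2.99% (ZT12), and 0.0193% (ZT16). Of the 63 values of the members there, 9 had an unadjusted p under 0.05, and DESeq2 called 2 members over all time points, as edgeR did. The estimated log2 fold change of *SR45A* was smaller at ZT1 (0.23) and ZT4 (0.21), though no test compared these time points with ZT2. At ZT1 *SR45A* had 87.8 and 89.4 CPM in *ss4* against 72.3 and 79.3 in WT, and at ZT4 57.0 and 63.3 against 50.2 and 57.4. The effect on *SR45A* at ZT2 exceeded that at ZT0 by 0.66 (SE 0.15) on the log2 scale, which did not pass (adjusted p = 0.131, with 0.121% of all genes called). The adjusted p was 0.0478 with DESeq2 and 0.0398 with only these 4 groups in the fit. For *SR30* the same difference in edgeR's test was 0.51 (SE 0.20) and did not pass (adjusted p = 0.977). The log2 fold change of *SR30* in *ss4* was 0.35 at ZT0 and 0.36 at ZT1, without a call. Without replicate 1 or replicate 2 the call for *SR30* was lost (adjusted p = 0.175 and 0.072) at log2 fold changes of 0.77 and 0.94, whereas *SR45A* remained.

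**Figure D2:**
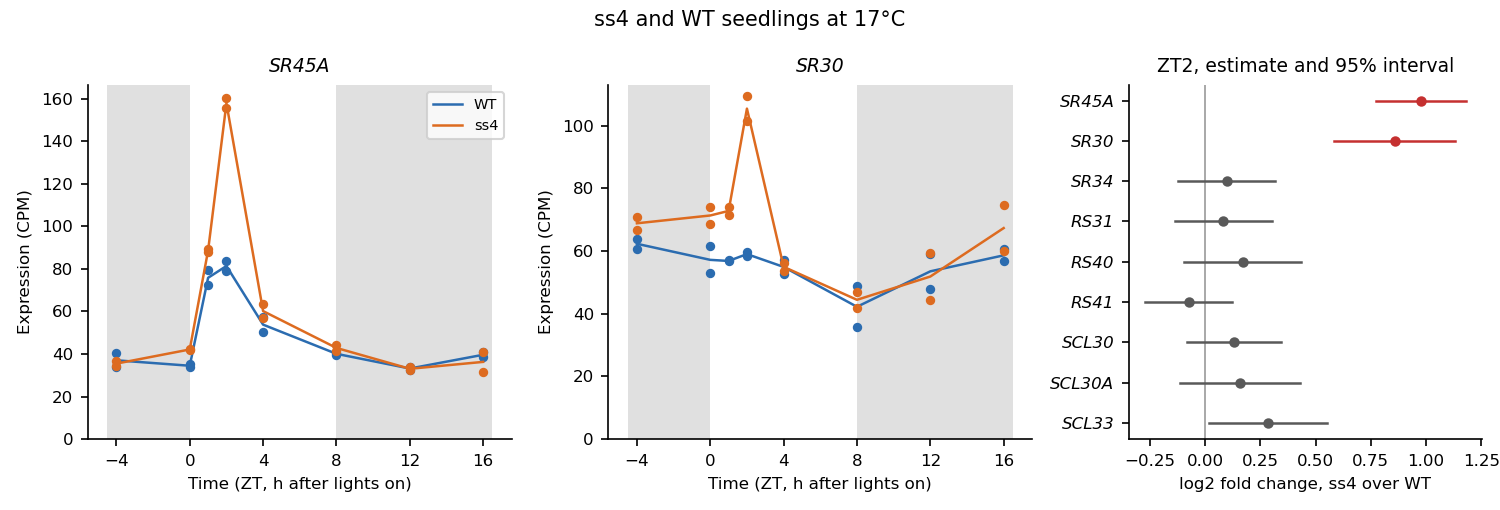
Left and middle, CPM of *SR45A* and *SR30* in WT (blue) and *ss4* (orange) at 17°C over the day, with 2 libraries per point and a line through their mean. Right, log2 fold change of *ss4* over WT at ZT2 for the 9 genes with 95% intervals, where red marks an adjusted p under 0.05. *SR45A* and *SR30* stand at 0.98 and 0.86 and the others between −0.07 and 0.29.

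The mutants *pgm*, *ss3/4*, and *ss3/4/pgm* were compared with WT to ask what the loss of starch itself does. At ZT0, before lights on, 7 of the 9 members were overexpressed in each of the 3 mutants. They were the same 7 genes, *SR30*, *SR34*, *RS31*, *RS40*, *RS41*, *SCL30*, and *SCL33*, while *SR45A* and *SCL30A* were not called. The share of all genes called was 57.0% in *pgm*, 58.5% in *ss3/4*, and 61.3% in *ss3/4/pgm* at ZT0, and 28.1%, 30.4%, and 30.6% were called higher. The 3 comparisons share their WT libraries. The median log2 fold change of the 9 members was 0.86, 0.79, and 1.07, against −0.07, 0.01, and −0.04 for all genes tested. In each mutant about as many genes were called lower as higher, and no member was called lower.

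*SR34* showed the largest rise at ZT0 in *pgm* and *ss3/4*. It had 142 and 141 CPM in WT, 345 and 345 in *pgm*, 378 and 371 in *ss3/4*, and 333 and 303 in *ss3/4/pgm*. All 6 mutant libraries lay above both WT libraries. The log2 fold change was 1.35 (SE 0.10, adjusted p = 1.13e-09), 1.47 (SE 0.09, adjusted p = 3.14e-10), and 1.22 (SE 0.09, adjusted p = 2.67e-09). *RS40* had 60.5 and 53.3 CPM in WT, 135 and 121 in *pgm*, 126 and 116 in *ss3/4*, and 158 and 137 in *ss3/4/pgm*. *SCL30* had 57.8 and 63.5 CPM in WT and 98.4 to 148 in the 6 mutant libraries. *RS41* moved least among the 7, with 97.9 and 87.9 CPM in WT and 112 to 144 in the mutants. By contrast *SR45A* had 33.8 and 35.1 CPM in WT and 28.6 to 37.1 in the 6 mutant libraries at ZT0, where *pgm* and *ss3/4* overlapped with WT and both libraries of *ss3/4/pgm* lay just below it. *SCL30A* had 52.3 and 48.6 CPM in WT and 45.7 to 66.7 in the mutants, with *pgm* (47.1 and 45.7) just below WT and the others overlapping.

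At ZT2, in the light, *ss3/4* stood apart. In this genotype, 8 of the 9 members were overexpressed (54.0% of all genes called, 26.6% higher), 7 in *pgm* (40.4% and 19.4%), and 6 in *ss3/4/pgm* (41.3% and 19.7%). *SR30* had 58.4 and 59.7 CPM in WT, 117 and 98.1 in *pgm*, 256 and 338 in *ss3/4*, and 134 and 127 in *ss3/4/pgm*. Its log2 fold change in *ss3/4* was 2.30 (SE 0.13, adjusted p = 1.86e-10), which is 4.91-fold and the largest change of any member at 17°C. *SR45A* had 79.1 and 83.6 CPM in WT, 103 and 113 in *pgm*, 216 and 245 in *ss3/4*, and 114 and 101 in *ss3/4/pgm*, with log2 fold changes of 0.40, 1.47, and 0.39. *RS31* had 45.1 and 45.6 CPM in WT, 79.5 and 81.7 in *pgm*, 158 and 157 in *ss3/4*, and 90.0 and 83.2 in *ss3/4/pgm*. For these 3 genes both libraries of *ss3/4* lay above all others at ZT2, as they did for *SR34*, *RS40*, *RS41*, and *SCL33*. The number of all genes that separated in this way was not counted. *HSP70* had 642 and 669 CPM in *ss3/4* at ZT2, 92.7 and 96.5 in *pgm*, and 100 and 101 in *ss3/4/pgm*.

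Tested directly at ZT2, *ss3/4* exceeded *ss3/4/pgm* in 7 of the 9 members, with 25.9% of all genes called and 13.6% called higher. *SR30* differed by 1.17 (SE 0.13, adjusted p = 2.28e-06), *SR45A* by 1.08 (SE 0.10, adjusted p = 2.88e-07), *RS31* by 0.85, *SCL33* by 0.65, *SR34* by 0.62, *RS41* by 0.44, and *RS40* by 0.44 on the log2 scale. *SCL30* and *SCL30A* were not called, with differences of 0.01 (95% interval −0.21 to 0.22) and 0.08 (−0.15 to 0.32). *SCL30A* was not called in any mutant at either time point. It rose from ZT0 to ZT2 in WT, from 52.3 and 48.6 to 77.6 and 87.2 CPM, and its ZT2 values in the mutants were 75.3 to 88.9.

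The effect of a genotype was also compared between ZT2 and ZT0, a test added after the values were seen. In *ss3/4* the effect at ZT2 was larger for *SR45A* by 1.37 (SE 0.15, adjusted p = 4.54e-06) and for *SR30* by 1.03 (SE 0.19, adjusted p = 5.84e-04) on the log2 scale, and it was also larger for *RS31* and smaller for *RS40*, with 22.2% of all genes called. In *pgm* and *ss3/4/pgm*, 4 and 5 members had a smaller effect at ZT2 and only *SR45A* a larger one, with 31.2% and 33.5% of all genes called. *RS40* shrank most, by 0.94 in *pgm* and by 1.16 in *ss3/4/pgm*. In these genotypes *RS40* had 121 to 158 CPM at ZT0 and 60.2 to 61.4 at ZT2.

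The libraries of *pgm*, *ss3/4*, and *ss3/4/pgm* also differed from WT in the markers of organs. The summed root markers were 1568 to 1844 CPM in WT at ZT0 and ZT2 and 854 to 1475 in the 3 mutants, and the summed shoot markers were 9977 to 12793 and 10212 to 32955. Single root markers did not all follow their sum. In *ss3/4/pgm* 2 were called higher and 1 lower at ZT0, and 1 higher and 1 lower at ZT2. In *pgm* 1 was called higher and 1 lower at each time. In *ss3/4* calls were only lower, 2 at ZT0 and 1 at ZT2. The part of these differences in the levels of the SR genes was not tested. What the 3 mutants share against WT cannot be told apart from a difference between sets of libraries. The comparison of *ss3/4* with *ss3/4/pgm* does not use WT, but these genotypes also differed in the markers at ZT2. Summed shoot markers were 10211.9 to 13808.7 CPM in *ss3/4* and 16830.5 to 19015.4 in *ss3/4/pgm*. Summed root markers were 1102.9 to 1265.6 and 853.6 to 894.4 CPM. Of the 3 single root markers, 1 was called higher in *ss3/4* and 1 lower. Of the 3 shoot markers, 1 was called, lower in *ss3/4*.

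**Figure D3:**
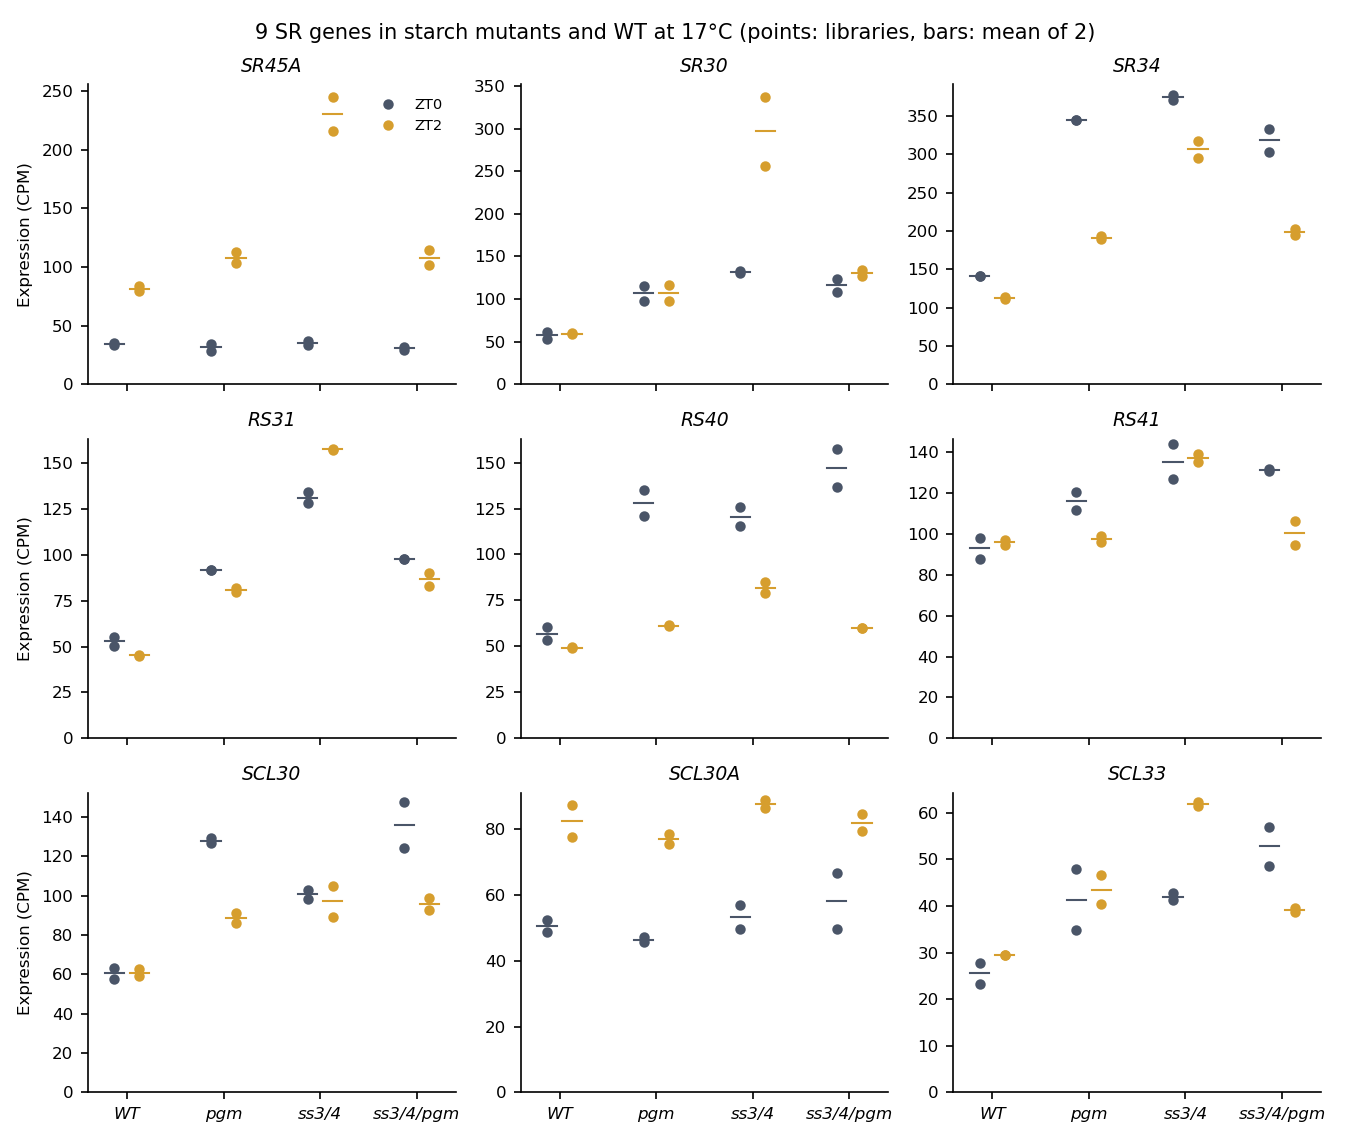
CPM (y axis) of the 9 SR genes in WT, *pgm*, *ss3/4*, and *ss3/4/pgm* at 17°C at ZT0 (grey) and ZT2 (yellow), each point a library and each bar the mean of 2. *SR34* and *RS40* are high in the 3 mutants at ZT0. At ZT2 all genes except *SCL30* and *SCL30A* are higher in both *ss3/4* libraries than in any other library of that time.

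Genes that work with SR proteins were counted for comparison in *ss3/4* at ZT2, where 54.0% of all genes were called and 26.6% were called higher. Of the 11 other SR genes, 5 were overexpressed and 1 under-expressed, with a median log2 fold change of 0.30. *RSZ21*, an SR gene with a zinc knuckle, had the largest rise at 2.18 (SE 0.16, to a mean of 93.1 CPM), followed by *SR34B*, a close relative of *SR34*, at 2.12 (SE 0.11, from a mean of 10.9 to 48.0 CPM). *SR34* and *SR34B* are close paralogs, and how shared reads were assigned is not given in the sources used here, so the split between them is uncertain. Of the 8 partners at splice sites, 6 were overexpressed and none under-expressed, with a median of 0.71. *U2AF65A*, which recognizes the end of introns, rose by 1.22 (SE 0.10), and *U1-70K*, a protein of the particle that binds the start of introns, by 1.15 (SE 0.10). Of the 10 genes for SR kinases and nuclear import, 5 were overexpressed and 1 under-expressed, with a median of 0.28. The kinase gene AT3G53030 rose by 0.93 (SE 0.12), and AT5G22840, another kinase gene, fell by 0.72 (SE 0.18). Of the 4 genes for nonsense-mediated decay, *UPF3* rose by 0.38 (SE 0.12) and *UPF1* fell by 0.33 (SE 0.13). The medians stand against 0.00 for all genes tested and 1.04 for the 9 members.

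**Figure D4:**
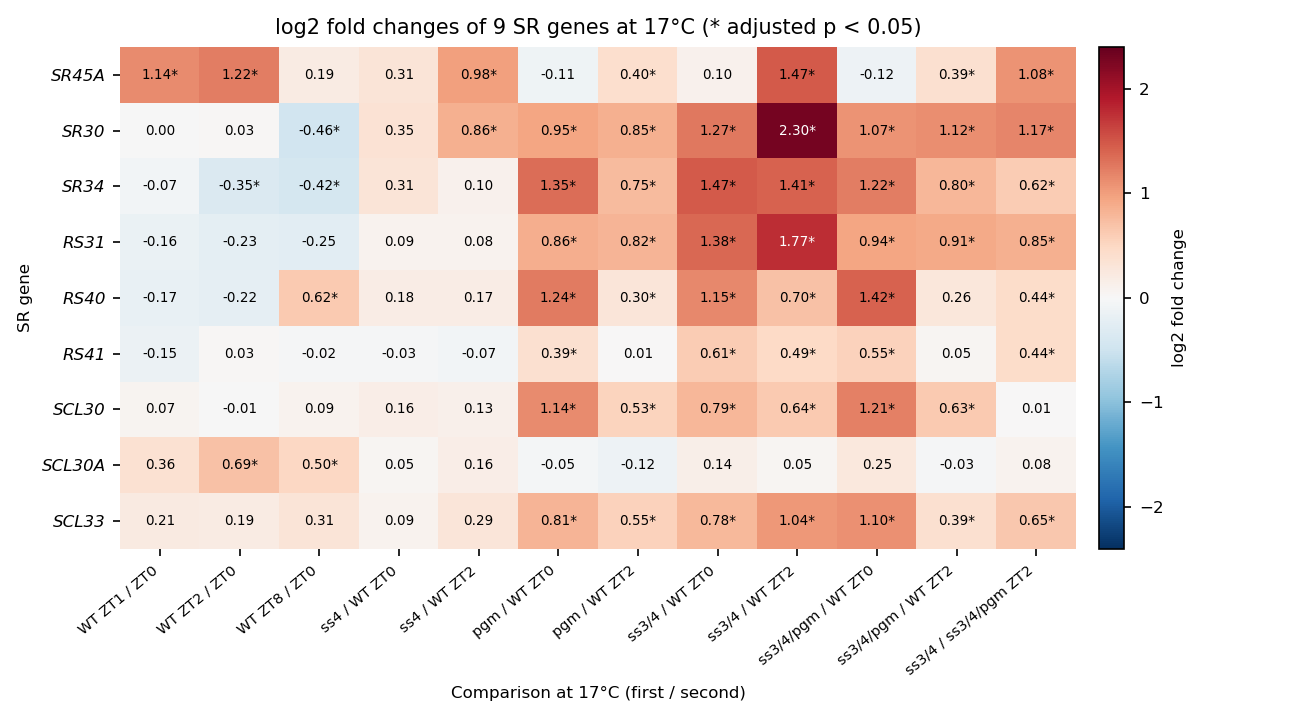
log2 fold changes of the 9 SR genes (rows) in 12 comparisons at 17°C (columns, first group over second), colored from blue (lower) to red (higher), with an asterisk for an adjusted p under 0.05. *SR45A* is red in the morning columns of WT and in the ZT2 columns of the mutants, 7 genes are red in the ZT0 columns of the starch mutants, and *SCL30A* has an asterisk only in columns that compare times of day.

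In liquid culture the libraries of each inhibitor went against each other. At both temperatures the library labelled DBMIB replicate 1 resembled the library labelled DCMU replicate 2 (Pearson r over 19193 genes of 0.983 at 22°C and 0.989 at 27°C). The library labelled DBMIB replicate 2 resembled that labelled DCMU replicate 1 (0.989 and 0.981). The libraries with the same label had r of 0.872 to 0.891. *HSP70* at 22°C had 2719 and 37.5 CPM in the libraries labelled DBMIB and 32.9 and 2304 in those labelled DCMU, with 425 and 509 in the mock. Libraries were kept under their labels, and the values of each replicate are given below.

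*SR45A* split with these libraries. At 22°C it had 161 and 195 CPM in the mock, 373 and 87.9 in the libraries labelled DBMIB, and 77.1 and 401 in those labelled DCMU. At 27°C it had 371 and 345 CPM in the mock, 914 and 259 in the libraries labelled DBMIB, and 192 and 931 in those labelled DCMU. In each inhibitor group 1 library lay above both mocks and 1 below, and the log2 fold changes by label of 0.36 to 0.73 had adjusted p-values of 0.68 to 0.895. *SR30* was higher than the mock in all 4 inhibitor libraries at 22°C, at 165 to 285 CPM against 113 and 124, and it did not pass the test (adjusted p = 0.338 for DBMIB and 0.264 for DCMU). At 27°C *SR30* had 298 and 265 CPM in the mock, 672 and 374 in the libraries labelled DBMIB, and 269 and 639 in those labelled DCMU.

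*SR34* and *SCL30A* lay on 1 side of the untreated and mock libraries in every inhibitor library. *SR34* was above the untreated and mock libraries in all 8 inhibitor libraries, at 179 to 320 CPM against 142 to 167 at 22°C and at 195 to 385 against 148 to 159 at 27°C. Among the inhibitor libraries of a temperature, *SR34* was higher in the pair where *SR45A* was lower. At 27°C *SR34* had 369 CPM in the library labelled DCMU replicate 1 and 385 in DBMIB replicate 2, where *SR45A* was low, and 200 and 195 where *SR45A* was high. *SCL30A* was below the untreated and mock libraries in all 8 inhibitor libraries. It had 52.2 to 65.7 CPM at 22°C against 78.7 to 91.1, and 50.2 to 58.3 at 27°C against 91.0 to 108. Other members separated at a single temperature, all higher with inhibitor: *SR30*, *RS31*, and *RS41* at 22°C and *SCL33* at 27°C. How many of all genes lay on 1 side was not counted, so this is not shown to be particular to these members.

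Grouped by label, *SCL30A* was the only member called. At 27°C its log2 fold change against the mock was −0.73 (SE 0.17, adjusted p = 0.0292) for DBMIB and −0.73 (SE 0.17, adjusted p = 0.0299) for DCMU, with 6.57% and 6.48% of all genes called. Without either replicate both calls were lost. At 22°C no member was called for either inhibitor, where 1.66% and 3.49% of all genes were, and *SCL30A* stood at −0.52 and −0.50. At an unadjusted p under 0.05, *SCL30A* and *RS31* passed for DBMIB at 22°C, and *SR30*, *SCL30A*, and *RS31* for DCMU. DESeq2 called 2 members for DBMIB and 1 for DCMU at 22°C. The shares above are those of edgeR, and none is given for DESeq2, so its counts have no background. Among the other lists, *SR34B* (1.26, adjusted p = 0.0245) and *SKIP* (0.87, adjusted p = 0.0412), a spliceosome-associated gene, were called higher for DCMU at 22°C. The fit of these libraries holds the disagreement between replicates as spread. In simulated data of the DBMIB comparison at 22°C with that spread, 2.02% of genes changed by 1 on the log2 scale were recovered (of 20085 genes run).

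With each inhibitor library as a group of its own, a choice made after seeing the data, the spread came from the untreated and mock libraries alone and the lone library was assumed to vary like them. Of the 9 members, 3 to 6 were then called higher and 1 or 2 lower in each library. For DBMIB the share of all genes called was 40.7% and 25.2% (replicates 1 and 2) at 22°C and 56.6% and 37.8% at 27°C, and for DCMU it was 29.7% and 51.1% at 22°C and 27.2% and 56.3% at 27°C. *SR45A* was called higher in the 4 libraries labelled DBMIB replicate 1 and DCMU replicate 2, by 1.04 to 1.39 on the log2 scale, and lower in the other 4, by −0.43 to −1.18. *SCL30A* was called lower in 7 of the 8 libraries and stood at −0.35 (adjusted p = 0.0575) in the library labelled DBMIB replicate 2 at 22°C. In these single-library comparisons, a p-value compares that library with the mock, not a treatment.

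**Figure D5:**
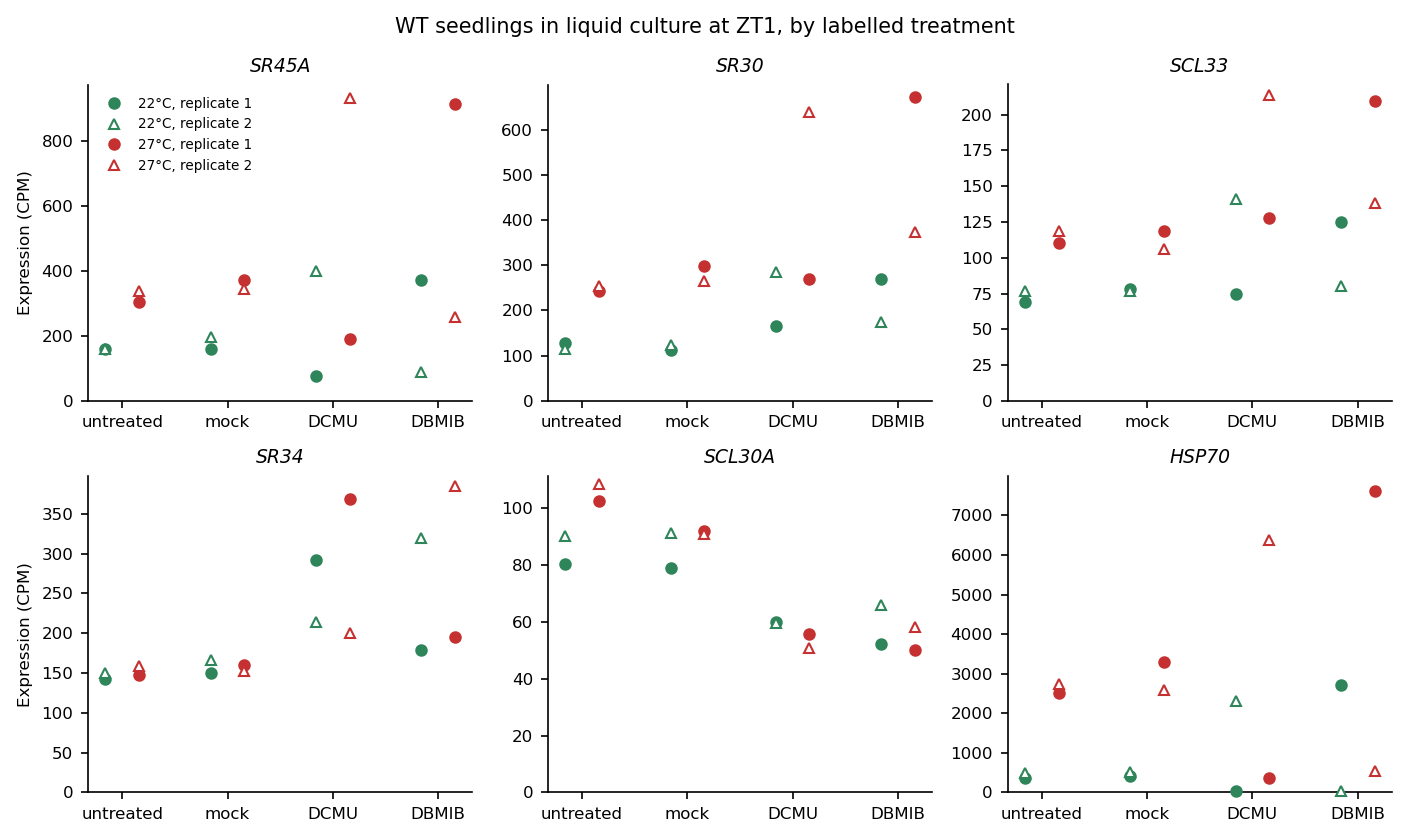
CPM of *SR45A*, *SR30*, *SCL33*, *SR34*, *SCL30A*, and *HSP70* in WT seedlings in liquid culture at ZT1, by labelled treatment (x axis) at 22°C (green) and 27°C (red). Filled circles are replicate 1 and open triangles replicate 2. In DCMU and DBMIB the replicates of *SR45A* and *HSP70* lie on opposite sides of the mock, and all inhibitor libraries of *SCL30A* lie at or below 65.7 CPM.

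Untreated and mock seedlings did not differ in any member (0 called of 9 at each temperature, where 0% of all genes were called). No member had an unadjusted p under 0.05, and no alternative called one (in the fit of the 8 untreated and mock libraries described next, 0.131% and 0.0958% of all genes were called at 22°C and 27°C). Between 27°C and 22°C, the 3 members that were higher at 27°C throughout the time course were higher here as well. *SR30* had 128 and 114 CPM in untreated seedlings at 22°C and 243 and 254 at 27°C. *SR45A* had 159 and 160 CPM at 22°C and 303 and 338 at 27°C, and *SCL33* 69.0 and 77.0 and then 110 and 119. The temperatures did not overlap for these genes in untreated or in mock seedlings, nor did they for *RS41* (higher at 27°C) and *SCL30* (lower), and in untreated seedlings *SCL30A* and *RS40* did not overlap either. How many of all genes separated in this way was not counted, so the separation is not shown to be particular to these members. In the fit of all 16 libraries no member was called (0.0197% and 0.0296% of all genes called in untreated and mock). At an unadjusted p under 0.05 *SR30* passed in both, and *RS41* in untreated seedlings, and DESeq2 called 0. In a fit of the 8 untreated and mock libraries alone, added after seeing the data, the log2 fold changes in untreated seedlings were 0.99 (adjusted p = 4.30e-05) for *SR30*, 0.96 (adjusted p = 8.74e-05) for *SR45A*, and 0.59 (adjusted p = 0.00112) for *SCL33*. In that fit, 22.8% and 27.1% of all genes were called, 3 members were higher in each of untreated and mock seedlings, and *SCL30* was lower in the mock.

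Over the 60 libraries with counts, *SR45A* varied together with heat genes. The genes with the most similar log2 CPM were *MBF1C* (AT3G24500), a coactivator of the heat response, *Hop3* (AT4G12400), a cochaperone, and *HSP90.1* (AT5G52640), a chaperone, with Pearson r of 0.979, 0.979, and 0.976 among 19193 genes. *HSP70* ranked 5 with r = 0.968, and *SR30* ranked 267 with r = 0.837. For *SR30* the most similar genes were *VPS35B* (AT1G75850, r = 0.935), which takes part in protein sorting, *GolS1* (AT2G47180, r = 0.933), which makes galactinol, and *AAC3* (AT4G28390, r = 0.924), a carrier of adenine nucleotides. Among the 9 members, *SR30* and *SCL33* were most alike (r = 0.919), followed by *RS41* and *SCL33* (0.889) and *SR34* and *RS31* (0.886). The lowest values were those of *SCL30A* with *RS40* (−0.348) and with *SR34* (−0.273), and of *SR45A* with *RS40* (−0.248). These values describe libraries that share their time points, genotypes, and treatments, and they are not independent points.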

How the data were processed

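RNA-seq counts and TPM values per gene were deposited by the authors, whose processing notes name FastQC, Trimmomatic, TopHat, Picard, and the TAIR10 build. The counter and its strand setting are not given in the sources used here, and the labels name more than 1 library kit and 2 sequencing centres without assigning libraries. Deposited counts of 60 libraries were fitted with edgeR 4.0.16 (R 4.3.3, TMM, filterByExpr, quasi-likelihood test) in 3 fits: WT and *ss4* at 17°C, the starch mutants with WT, and liquid culture. Benjamini-Hochberg adjustment covered every gene tested, and adjusted p under 0.05 was called. The authors' TPM values at 22°C and 27°C were compared as log2(TPM + 1) with no test, since depth is unknown and each point has 1 library. FPKM values, per gene length and depth, which the authors deposited in some files, were not used. CPM used TMM factors over the 60 libraries. The 9 members and all lists were chosen with earlier results of these data known, and all 9 members are named. Of the other lists, the 2 largest changes past the threshold in *ss4* or *ss3/4* at ZT2 or an inhibitor at 22°C are named, and for likeness the 3 genes with the highest Pearson correlation. Alternatives were DESeq2 1.42.0, its size factors, other filters, a replicate block, only the groups compared, and each replicate left out. In simulated counts of 20414 genes for *ss4* at ZT2, 81.3% of genes changed by 1 on the log2 scale were recovered, and of 19684 for *ss3/4* at ZT2, 93.2%. One upstream sequence is not reported here. Upstream bases came from RefSeq TAIR10.1 and were read with Python 3.11.15 and pandas 2.3.3. Depth was 3204754 to 19679912 counts (median 9800430).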

Additional observations from a re-analysis of the deposited data

Results flagged for a closer look

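In each starch mutant, the effect of genotype against WT was compared between ZT2 and ZT0 with an interaction term in edgeR's fit, added after the data were seen. The members below passed (adjusted p under 0.05), which means that their effect differed between the time points, and values are the effect at ZT2 minus that at ZT0 on the log2 scale. In *pgm* the effect was larger at ZT2 for *SR45A* (0.50) and smaller for *RS40* (−0.94), *SCL30* (−0.61), *SR34* (−0.60), and *RS41* (−0.38). In *ss3/4* it was larger for *SR45A* (1.37), *SR30* (1.03), and *RS31* (0.38), and smaller for *RS40* (−0.45). In *ss3/4/pgm* it was larger for *SR45A* (0.51) and smaller for *RS40* (−1.16), *SCL33* (−0.71), *SCL30* (−0.59), *RS41* (−0.50), and *SR34* (−0.42). The 3 comparisons share their WT libraries.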

How the results depend on the processing

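Of 83 calls of a member in a comparison, 50 were kept under every alternative run on them, 33 were lost under 1 or more, and 0 changed sign. Leaving out replicate 1 lost 25 and replicate 2 lost 26, only the groups compared 8, no filter 6, DESeq2 4, at least 10 counts in every library 3, and DESeq2 size factors 1. The replicate block lost 1, *RS41* in the *pgm* difference between time points (−0.38, adjusted p = 0.0555). Numbers were not taken to pair the samples: at the same time point, the correlation of same-numbered WT and *ss4* libraries was 0.01 to 0.14 and over 0.1 at 2 of 8 time points. Over all pairs of groups in liquid culture it ran from −0.86 to 0.86.

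With 1 replicate left out, the 16 calls in WT against ZT0 became 9 to 14, the 2 in *ss4* became 1 to 2, the 7 in *pgm* at ZT2 became 4 to 5, and the 1 for each inhibitor at 27°C became 0. Only the groups compared gave 0 for each inhibitor at 27°C and 7 (from 0) for 27°C against 22°C, as did the 8 untreated and mock libraries (7). DESeq2 gave 2 for DBMIB and 1 for DCMU at 22°C (from 0), with no share of all genes beside them. For the *SR45A* difference of *ss4* between ZT2 and ZT0, DESeq2 gave 0.66 (adjusted p = 0.0478). Only the groups compared gave 0.65 (adjusted p = 0.0398) for it. With single libraries as groups, replicates 1 and 2 gave 4 and 5 for DBMIB at 22°C, 5 and 8 at 27°C, 6 and 7 for DCMU at 22°C, and 5 and 5 at 27°C. DBMIB and DCMU libraries of the same number had a correlation of deviations of −0.86 at both temperatures. The cause was not tested. With a pseudocount of 0.1 on TPM, 3 members were higher at 27°C at all 8 time points, as with 1. Genes changed by 1 on the log2 scale would rarely be called in the inhibitor fit.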
